A study of Mus musculus with 6 samples.

Results

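The genes described here are 8 genes that make, store, break down or accompany serotonin in the enterochromaffin cell of the gut, out of 23565 genes counted in bulk RNA sequencing of sorted crypt cells of the mouse small intestine. They are Tph1, Ddc and Gch1 for synthesis, Slc18a1 for vesicle loading, Maoa for breakdown, the transcription factors Lmx1a and Fev, and the ion channel Trpa1. They were chosen by their CPM in these same libraries, which differed between the groups described below, so that difference is given for them as a description, and a call for one of them is no evidence for it. All 8 were in the count table, and all 8 passed the filter on low counts, Trpa1 through its Hopx-CreER counts.

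Sorted tdTomato-positive cells made up the 3 libraries of the Hopx-CreER group, from mice with a tamoxifen-inducible Cre recombinase (CreER) driven from Hopx and a Rosa26 LSL-tdTomato reporter, which makes red tdTomato once Cre has removed a stop. Cells with both tdTomato and eGFP made up the 3 libraries of the Lgr5-CreER group, from mice with the Lgr5 eGFP-IRES-CreER allele and the same reporter. Mice of both groups received 1 mg of tamoxifen, and crypts were collected 16 hours later; the series gives 3 mice of each genotype, and no age, sex or strain is given in the sources used here. The groups differ in genotype and in gate at once, and these cannot be told apart. In bulk RNA, fewer cells of a type and less RNA per cell cannot be told apart either. Totals ran from 10839306 to 14570555 counts, so that 3 counts were worth 0.201 to 0.278 CPM (the count scaled to a common library total with TMM factors); this limit, like the intervals given for ratios of counts, covers counting error only. The labels call the cells intestinal epithelium, and 7 immune markers summed to at most 7.14 CPM in a library. Markers of Lgr5 stem cells summed to 2778 to 4611 CPM in Hopx-CreER and 9639 to 10143 CPM in Lgr5-CreER libraries, those of Paneth cells to 10804 to 23014 and 1206 to 2367 CPM, and those of goblet cells to 3869 to 7919.9 and 1614 to 1943 CPM. Lgr5 itself was 21 to 52.8 CPM in Hopx-CreER libraries and 103 to 110 CPM in Lgr5-CreER libraries, and Hopx was 44.9 to 64.2 CPM against 87.1 to 94.3 CPM, so the Hopx message was not higher in the cells marked through Hopx. Library numbers follow column order and pair nothing across groups, Lgr5-CreER libraries 2 and 3 have column names that share a number, and Hopx-CreER library 3 carries an extra tag in its column name that the labels do not explain. Because columns are not tied to single mice by any label, p-values measure the spread between these libraries, which may be technical.

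Enterochromaffin cells are enteroendocrine cells that make most of the serotonin of the body and release it onto nerve endings and neighbouring cells of the gut wall. Tph1 hydroxylates tryptophan in the rate-limiting step, using tetrahydrobiopterin, a cofactor whose synthesis begins with Gch1, and Ddc then removes the carboxyl group to give serotonin. The vesicular monoamine transporter Slc18a1 packs serotonin into granules, and monoamine oxidase A, encoded by Maoa, degrades it. Ddc and Maoa also act in other cells, among them the absorptive enterocyte, whereas Tph1 is also known from mast cells.

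Promoter windows were available from RefSeq (GRCm38.p6) for 6 of the 8 genes, in 8 windows that each run from 250 bases before to 50 bases after an annotated start. These are shown for Tph1 and Fev because they hold the letters TAATTA, the core of many homeodomain binding sites, and for Ddc as a gene of the same pathway without it. The windows are chr7:46667328-46667627 for Tph1, chr1:74885359-74885658 for Fev and chr11:11890359-11890658 for Ddc, all on the minus strand, written 5′ to 3′ with TAATTA in capitals.
Tph1: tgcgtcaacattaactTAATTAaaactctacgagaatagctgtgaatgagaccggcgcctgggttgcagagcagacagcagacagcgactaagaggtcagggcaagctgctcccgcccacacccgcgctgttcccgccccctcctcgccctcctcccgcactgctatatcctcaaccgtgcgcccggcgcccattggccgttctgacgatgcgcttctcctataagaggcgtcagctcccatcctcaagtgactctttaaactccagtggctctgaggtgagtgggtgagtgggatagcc
Fev: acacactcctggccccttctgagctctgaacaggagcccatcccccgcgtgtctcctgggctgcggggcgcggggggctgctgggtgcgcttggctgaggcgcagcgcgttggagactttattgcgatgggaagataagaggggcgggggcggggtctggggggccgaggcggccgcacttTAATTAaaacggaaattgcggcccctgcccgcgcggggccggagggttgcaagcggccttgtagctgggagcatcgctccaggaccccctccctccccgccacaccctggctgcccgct
Ddc: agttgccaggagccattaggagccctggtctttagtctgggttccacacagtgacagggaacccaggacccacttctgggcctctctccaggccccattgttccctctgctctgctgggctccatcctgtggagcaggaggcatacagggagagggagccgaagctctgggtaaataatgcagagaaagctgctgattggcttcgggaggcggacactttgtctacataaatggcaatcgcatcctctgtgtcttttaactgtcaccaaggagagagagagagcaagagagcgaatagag
The match began 234 bases before the start in Tph1 and 69 bases before it in Fev, and both lay in the same run of 11 bases, tTAATTAaaac. TAATTA reads the same on both strands and was in 2 of the 8 windows and in 5.29% of 32851 promoter windows of this length. The second Tph1 window, the second Ddc window and the windows of Gch1, Lmx1a and Maoa did not hold these letters. The E-box CANNTG, searched on both strands, was in 3 of the 8 windows and in 72.3% of all windows, and GGAA, the core of ETS factor sites, in 7 of 8 and in 96% of all. GGAA and the TATA box letters TATAAA were also searched on both strands. TATAAA was in 2 of 8 windows and in 13.6% of all. Both matches were on the opposite strand, at -188 from the start in Gch1 and -68 in the second Ddc window. No match of these motifs overlapped TAATTA. A match is a description of the letters and says nothing of whether a factor binds.

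Every one of the 8 genes was higher in Hopx-CreER cells, and the sizes fell into a wide range, from 2.51-fold for Ddc to 33.6-fold for Trpa1. All 3 Hopx-CreER libraries lay above all 3 Lgr5-CreER libraries for each gene. In the edgeR fit across all genes 8 of 8 were called at an adjusted p of 0.05, where 12.8% of 12439 tested genes were called in either direction, 9.45% were called higher and 18.8% had no overlap with Hopx-CreER above. Since this contrast was known when the genes were chosen, nothing is read from that count. Every fold change here is Hopx-CreER over Lgr5-CreER, and the median on the log2 scale was 3.08 over the 8 genes and -0.033 over all tested genes. Together the 8 genes took 0.0895%, 0.118% and 0.117% of the scaled total in Hopx-CreER libraries 1, 2 and 3, and 0.0254%, 0.0297% and 0.0342% in Lgr5-CreER libraries 1, 2 and 3.

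**Figure D1:**
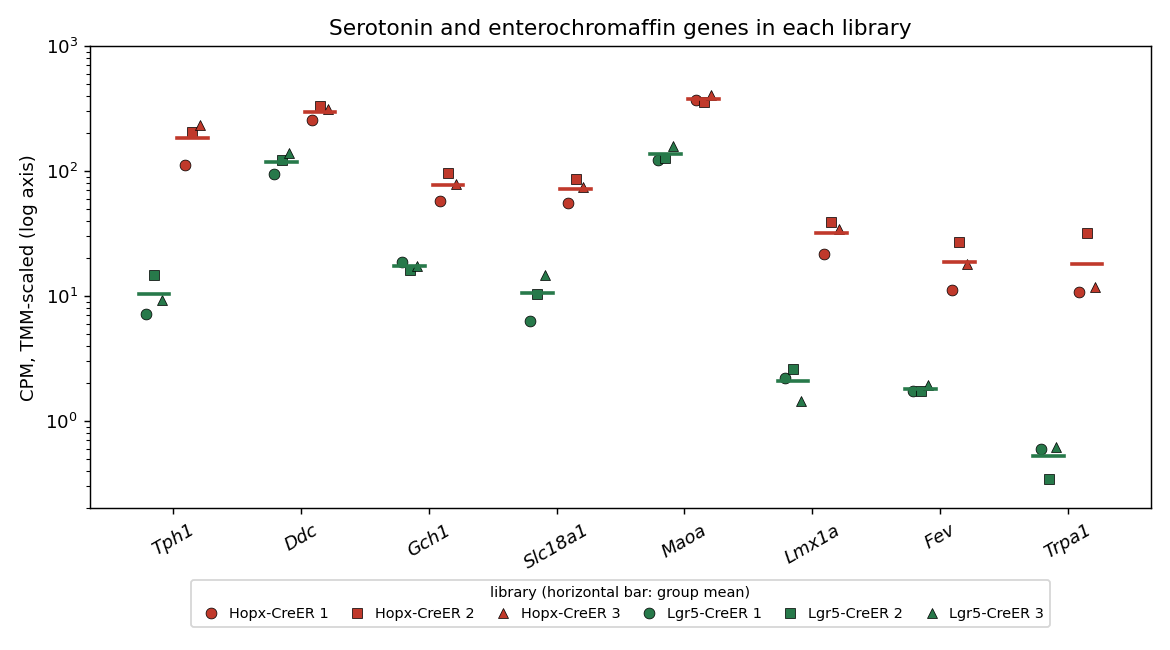
TMM-scaled CPM on a log axis for the 8 genes in each library (points, with a horizontal bar at the group mean), Hopx-CreER in red and Lgr5-CreER in green. No red point overlaps a green point of the same gene; the gap is widest for Trpa1, where the lowest Hopx-CreER library is 17.3 times the highest Lgr5-CreER library, and narrowest for Ddc, at 1.83 times.

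Tph1 (ENSMUSG00000040046.14; minus strand of chromosome 7, 46644641 to 46672537, in build GRCm38 as for all positions here) had levels of 112, 207 and 234 CPM in Hopx-CreER libraries 1, 2 and 3. In Lgr5-CreER libraries 1, 2 and 3 it stood at 7.23, 14.7 and 9.36 CPM. The Hopx-CreER mean was 184 ± 63.8 CPM against 10.4 ± 3.84 CPM (SD, n = 3), a log2 fold change of 4.15 ± 0.34 (SE). Within each group the highest library was about 2.08 and 2.03 times the lowest, far less than the gap between groups. Tph2, which encodes the hydroxylase of brain neurons, had 0 counts in all 6 libraries, which allows at most 0.201 to 0.278 CPM in a library.

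Ddc (ENSMUSG00000020182.16; minus strand of chromosome 11, 11814101 to 11898144), the decarboxylase, showed the smallest fold. It was 254, 328 and 315 CPM in Hopx-CreER libraries 1, 2 and 3 and 95.3, 123 and 139 CPM in Lgr5-CreER libraries 1, 2 and 3, a log2 fold change of 1.33 ± 0.16 (SE). In Lgr5-CreER cells Ddc and Tph1 were both well above the level of 3 counts, Tph1 at 7.23 to 14.7 CPM. The Ddc to Tph1 ratio of CPM ran from 8.38 to 14.8 in Lgr5-CreER libraries and from 1.35 to 2.26 in Hopx-CreER libraries. Gch1 (ENSMUSG00000037580.9; minus strand of chromosome 14, 47153895 to 47189413), which starts cofactor synthesis, was 57.1, 97.2 and 78 CPM against 18.7, 16.2 and 17.4 CPM. Its log2 fold change was 2.15 ± 0.21 (SE), between those of Ddc and Tph1.

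Slc18a1 (ENSMUSG00000036330.12; minus strand of chromosome 8, 69037711 to 69089235), the granule transporter, was 55.4, 86.6 and 75 CPM in Hopx-CreER libraries 1, 2 and 3. It was 6.36, 10.5 and 14.7 CPM in Lgr5-CreER libraries 1, 2 and 3, and the log2 fold change was 2.79 ± 0.30 (SE). The annotation places Atp6v1b2 on the other strand of this locus, but the exons of the genes share 0 bases. In Lgr5-CreER cells Slc18a1 and Tph1 did not keep one ratio: it was 0.88, 0.712 and 1.57 in libraries 1, 2 and 3, against 0.494, 0.419 and 0.321 in Hopx-CreER libraries. Relative to Tph1, then, Slc18a1 was higher in each Lgr5-CreER library than in any Hopx-CreER library.

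Maoa (ENSMUSG00000025037.6; plus strand of chromosome X, 16619698 to 16687818), which degrades serotonin and other amines, was the steadiest of the 8 genes between Hopx-CreER libraries. It stood at 373, 359 and 407 CPM there and at 122, 128 and 158 CPM in Lgr5-CreER libraries 1, 2 and 3. The log2 fold change was 1.48 ± 0.13 (SE), and the coefficient of variation was 6.5% in Hopx-CreER and 14.1% in Lgr5-CreER libraries. With offsets for GC content the log2 fold change was 1.77.

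The transcription factors were low in Lgr5-CreER cells. Lmx1a (ENSMUSG00000026686.14; plus strand of chromosome 1, 167689237 to 167848741), a LIM homeodomain factor needed in mouse for full Tph1 expression in enterochromaffin cells, was 21.7, 39.3 and 34 CPM in Hopx-CreER libraries and 2.21, 2.59 and 1.45 CPM in Lgr5-CreER libraries. Fev (ENSMUSG00000055197.4; minus strand of chromosome 1, 74881509 to 74885419), an ETS factor that in brain sets serotonergic identity, was 11.2, 26.8 and 18 CPM in the former and 1.74, 1.73 and 1.93 CPM in the latter. Lmx1a differed by 3.93 ± 0.33 and Fev by 3.37 ± 0.37 (SE) on the log2 scale. For both genes, library 2 was the highest and library 1 the lowest of the Hopx-CreER group.

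Trpa1 (ENSMUSG00000032769.4; minus strand of chromosome 1, 14872648 to 14918862), a cation channel through which enterochromaffin cells sense irritants, showed the largest fold of the 8 genes and their largest spread within the Hopx-CreER group. Counts were 142, 377 and 128 in Hopx-CreER libraries 1, 2 and 3, and 9, 4 and 9 in Lgr5-CreER libraries 1, 2 and 3. That is 10.7, 31.9 and 11.9 CPM against 0.602, 0.346 and 0.619 CPM, a log2 fold change of 5.07 ± 0.55 (SE). Hopx-CreER library 2 held 2.98 times the level of library 1, and the coefficient of variation in that group was 65.6%. Without Hopx-CreER library 2 the log2 fold change was 4.39, the lowest of the 15 alternatives.

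Per length, the order of the genes differed between the groups. In Hopx-CreER cells the mean levels in CPM per kilobase of merged exons were 91.1 ± 5.92 for Maoa, 67 ± 8.88 for Ddc and 29.8 ± 10.3 for Tph1 (SD, n = 3). Slc18a1, Gch1, Fev and Lmx1a followed at 13.4, 12.4, 11.5 and 9.33, neighbours whose library ranges overlapped, and Trpa1 came last at 4.26, its range overlapping those of Lmx1a and Fev. In Lgr5-CreER cells the levels in CPM per kilobase were 32.6 ± 4.59 for Maoa and 26.7 ± 4.92 for Ddc, whose ranges overlapped. Gch1 at 2.79, Slc18a1 at 1.94 and Tph1 at 1.69 came next, with overlap between neighbours, followed by Fev at 1.11, which overlapped with Tph1, and then without overlap by Lmx1a at 0.613 and Trpa1 at 0.123. Tph1 thus held place 3 in Hopx-CreER cells and place 5 in Lgr5-CreER cells. With the longest transcript as the length, Ddc stood before Maoa in both groups, at 148 and 91.1 in Hopx-CreER cells, and the other 6 genes kept their places.

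**Figure D2:**
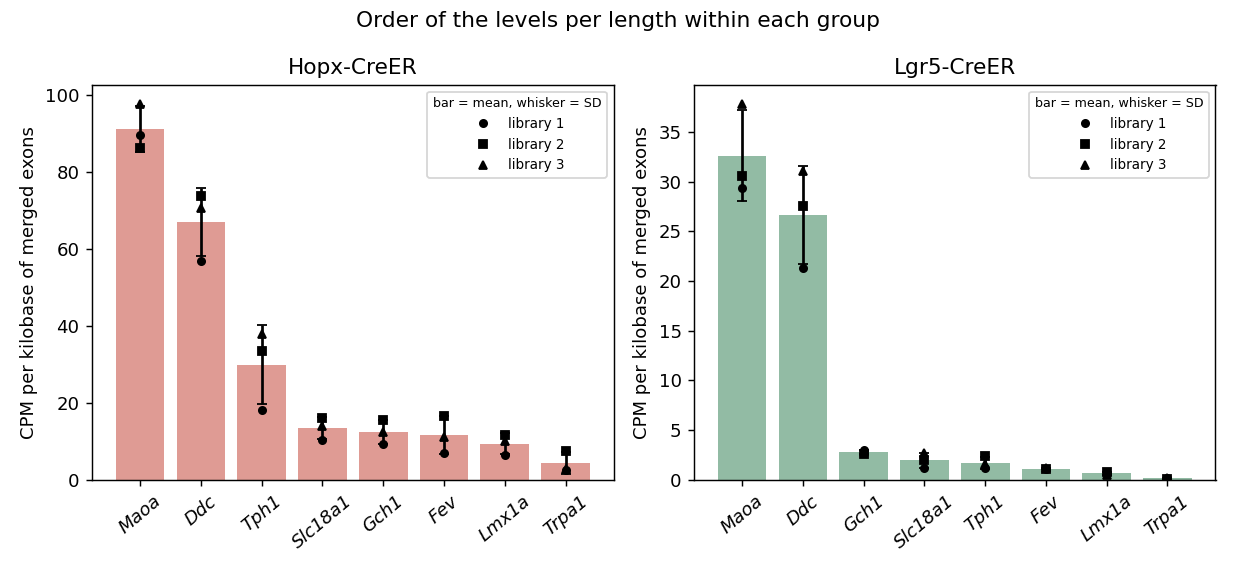
CPM per kilobase of merged exons in Hopx-CreER (left) and Lgr5-CreER (right) libraries, on separate linear axes that start at 0; bars are means, whiskers SD over 3 libraries, and points single libraries. Tph1 is bar 3 on the left, at 29.8, and bar 5 on the right, at 1.69, while Maoa and Ddc lead in both.

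Between the Hopx-CreER libraries the 8 genes did not rank alike. Library 2 was the highest for 6 genes and library 3 for Tph1 and Maoa, and library 1 was the lowest for every gene but Maoa. Pan-enteroendocrine markers (12 of 12 in the table, none at 0 in every library) summed to 1961, 4079 and 2572 CPM in Hopx-CreER libraries 1, 2 and 3 and to 127 to 224 CPM in Lgr5-CreER libraries, and 7 other gut hormones summed to 604, 3002 and 773 CPM in Hopx-CreER libraries 1, 2 and 3 and to 50.8 to 154 CPM in Lgr5-CreER libraries. Gip alone gave 2562 CPM of the sum in library 2, and Sst and Nts were highest in library 3, at 139 and 7.51 CPM. Enterocyte markers (12 of 12, none at 0 in every library) summed to 3894, 3301 and 5999.7 CPM in Hopx-CreER libraries 1, 2 and 3 and to 1781.2 to 2159.7 CPM in Lgr5-CreER libraries. Ddc and Maoa, which enterocytes also use, had log2 fold changes of 1.33 and 1.48. The median log2 fold change was 1.95 over the enterocyte markers, 1.96 over goblet and 2.21 over tuft markers. It was 3.14 over pan-enteroendocrine and 3.54 over Paneth markers. Maoa was highest in Hopx-CreER library 3, where the enterocyte sum was highest, but Ddc in library 2, where that sum was lowest. The part of any of these marker lists in the results was not tested. Of 10 mast cell markers, 9 were in the table, and Mcpt4, Fcer1a and Ms4a2 were at 0 in all 6 libraries. Their sum, 29.7 to 91.5 CPM in Hopx-CreER and 32.9 to 62.5 CPM in Lgr5-CreER libraries, was mostly Kit, which is not confined to mast cells. Mcpt1, Mcpt2 and Cpa3 were at 0 except in Hopx-CreER library 3, at 3.25, 1.30 and 0.0928 CPM, the last of which is 1 count. Hdc, which makes histamine, was 1.36, 2.96 and 1.58 CPM in Hopx-CreER libraries 1, 2 and 3 and 0.335 to 0.777 CPM in Lgr5-CreER libraries.

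**Figure D3:**
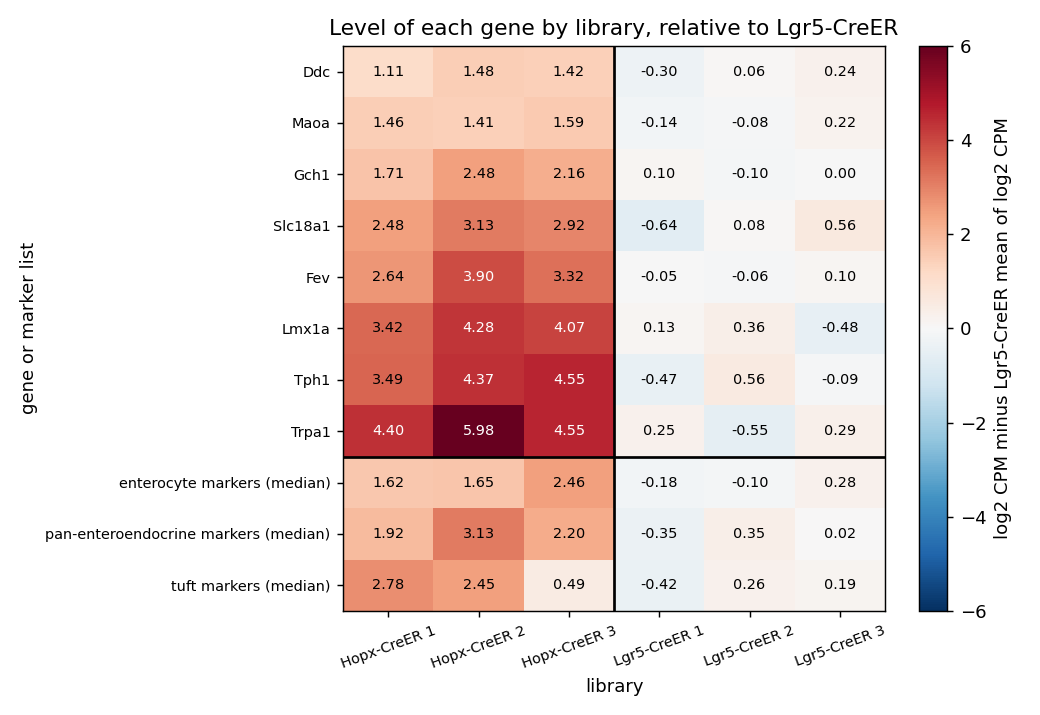
Log2 CPM minus the mean log2 CPM of the Lgr5-CreER libraries, by library (columns) for the 8 genes and, under the line, the median over 12 enterocyte, 12 pan-enteroendocrine and 10 tuft markers (for markers with 0.5 CPM added). Ddc and Maoa stay between 1.11 and 1.59 in the Hopx-CreER libraries, Tph1 reaches 3.49 to 4.55, and tuft markers fall to 0.49 in Hopx-CreER library 3.

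Levels of the 8 genes were also set against Chga, the granule protein chromogranin A, within each library. Per CPM of Chga, Hopx-CreER libraries 1, 2 and 3 held 0.108, 0.0922 and 0.119 CPM of Tph1, and Lgr5-CreER libraries 1, 2 and 3 held 0.141, 0.197 and 0.157. Relative to Chga, then, each Lgr5-CreER library held more Tph1 than any Hopx-CreER library. For Lmx1a the ratio was 0.0174 to 0.0209 in Hopx-CreER and 0.0242 to 0.0431 in Lgr5-CreER libraries, and for Fev 0.00919 to 0.012 against 0.0232 to 0.0339, with no overlap between groups. For Trpa1 the ranges overlapped, at 0.00606 to 0.0142 and 0.00464 to 0.0117. Ddc and Maoa differed most, with ratios to Chga of 0.146 to 0.245 and 0.16 to 0.36 in Hopx-CreER libraries and of 1.65 to 2.32 and 1.71 to 2.64 in Lgr5-CreER libraries. These orders depend on Chga as the gene divided by. Chgb, another granule protein, was 696, 1315 and 342 CPM in Hopx-CreER libraries 1, 2 and 3. In Lgr5-CreER libraries 1, 2 and 3 it was 45.1, 85.4 and 67.5 CPM. Set against Chgb, Tph1, Lmx1a and Fev overlapped between groups.

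Likeness of pattern was measured as the root mean square difference between log2 CPM profiles over the 6 libraries, each centred on its own mean, among 9391 other tested genes whose mean reached 5 CPM. Profiles were centred but not scaled, so this distance also follows the size of the group difference by which the 8 genes were chosen. Among the 8 genes the closest pair was Ddc and Maoa (0.17), then Tph1 and Lmx1a (0.35), and the farthest was Ddc and Trpa1 (1.71). Ddc and Maoa had the smallest log2 fold changes of the 8, 1.33 and 1.48, and Trpa1 the largest, 5.07. The genes nearest to Tph1 were Dusp2, a phosphatase of MAP kinases (0.16), Nptx2, a neuronal pentraxin (0.20), Resp18 (0.30), Fxyd6 (0.33) and Rab3c, a small GTPase of secretory vesicles (0.34). Nptx2 (0.23) and Rab3c (0.25) were also nearest to Lmx1a, and Syt13 (0.16) and Disp2 (0.17) to Fev. Nearest to Ddc were Adh1, an alcohol dehydrogenase (0.07), and Anks6 (0.12), and nearest to Maoa were Cdhr5, a protocadherin of the brush border (0.07), and Dhrs11 (0.10). Gch1 was nearest to Selenop (0.14) and Tpbg (0.15), and Serpinf2 (0.16) was among the genes nearest to Slc18a1. Trpa1 had the least close neighbours, Gm5159 (0.38) and Amigo2 (0.39).

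Around the 8 genes, 74 further genes of serotonin handling and of the enterochromaffin cell were taken from lists, of which 64 were in the table and 47 were tested. Of these, 23 were higher and 3 lower in Hopx-CreER cells by edgeR at an adjusted p under 0.05, and 21 did not pass; of all tested genes 9.45% were higher and 3.3% lower. The median log2 fold change was 0.92 over the 47 genes. Without Lgr5-CreER library 1, 2 or 3 the higher count was 15, 14 or 14, and it was 14 after summing the columns whose names share a number. Without Hopx-CreER library 1, 2 or 3 the higher count was 22, 16 or 24. Lists and members were chosen with results of these data known, so the counts are no independent evidence of direction. In addition, some of the genes called higher passed the filter on low counts only with their Hopx-CreER counts. Slc18a2, Scn3a, Ucn3, Pax6, Isl1 and Neurod1 are among them.

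No other gene of cofactor supply passed the test. Of 9 tested genes of tetrahydrobiopterin synthesis and recycling and of vitamin B6 supply for Ddc, 0 passed by edgeR in either direction, with 2 higher and 0 lower at an unadjusted p under 0.05 and 0 by DESeq2 or limma-voom. Pts, the next enzyme after Gch1, was 113 against 110 CPM in the group means, and Qdpr, which recycles the cofactor, 172 against 135 CPM; they are named after their values were seen. Pdxk, the pyridoxal kinase and the most abundant of the list, was 224 ± 35.8 CPM in Hopx-CreER and 286 ± 58.9 CPM in Lgr5-CreER cells (SD, n = 3), with a log2 fold change of -0.36 and a 95% interval of -0.73 to 0.02 (edgeR adjusted p 0.205). With GC offsets Pdxk passed as lower (edgeR adjusted p 0.0364).

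A second vesicular transporter and the uptake transporter of serotonin were higher. Slc18a2, the other vesicular monoamine transporter, was 8.51, 12.2 and 5.01 CPM in Hopx-CreER libraries and 0.669, 0.0864 and 0.206 CPM in Lgr5-CreER libraries, the latter 10, 1 and 3 counts. Its log2 fold change was 4.64 ± 0.62 (SE; edgeR adjusted p 0.00195), and 5.73 without Lgr5-CreER library 1. Slc18a2 passed the filter on low counts only with its Hopx-CreER counts, so its adjusted p is not read as evidence for that rise. In Hopx-CreER libraries it stood at 0.0667 to 0.154 of the Slc18a1 counts, which are not scaled for length. Slc6a4, the transporter that takes serotonin back up and is also found in enterocytes, was 122 ± 18.8 CPM in Hopx-CreER and 55.2 ± 10.5 CPM in Lgr5-CreER cells (SD, n = 3), and rose by 1.15 ± 0.17 on the log2 scale (edgeR adjusted p 0.00347). Of the list, 2 of 4 tested genes were higher and 2 did not pass, the more abundant of which was Slc29a4, at 2.86 against 2.11 CPM (edgeR adjusted p 0.601).

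Of 3 tested genes of breakdown and conjugation besides Maoa, 2 were higher. Maob, the other monoamine oxidase, stood at 42.4 ± 17.1 CPM in Hopx-CreER and 19 ± 2.92 CPM in Lgr5-CreER cells (SD, n = 3). It rose by 1.16 ± 0.28 (SE) on the log2 scale (edgeR adjusted p 0.0256), with Hopx-CreER library 3 the highest at 61.6 CPM. Aldh2, which oxidizes the aldehyde that monoamine oxidase makes, rose by 0.71 ± 0.14 (350.1 ± 51.2 against 214 ± 24.6 CPM; edgeR adjusted p 0.0107). Without Lgr5-CreER library 1, 2 or 3 the count was 1, 0 or 0, and it was 0 after summing the columns whose names share a number and 1 with GC offsets. Sult1a1, a sulfotransferase, had a log2 fold change of -0.75 with a 95% interval of -1.81 to 0.31.

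Amino acid transporters that can carry tryptophan moved in both directions. Slc6a19, the apical neutral amino acid transporter of enterocytes, rose by 4.07 ± 0.60 (SE, log2; edgeR adjusted p 0.00332), from 1.90 to 5.23 CPM in Lgr5-CreER libraries to 23.3, 45.2 and 116 CPM in Hopx-CreER libraries 1, 2 and 3, and by 3.21 without Hopx-CreER library 3. Slc7a8 and Slc3a2, the light and heavy chains of a basolateral exchanger, rose by 1.13 ± 0.12 (edgeR adjusted p 0.000926) and 0.86 ± 0.17 (edgeR adjusted p 0.012), the latter with an adjusted p of 0.0565 without Lgr5-CreER library 2. Slc7a5, another light chain, fell by 0.75 ± 0.14 on the log2 scale, with 61 to 73.2 CPM in Hopx-CreER and 103 to 133 CPM in Lgr5-CreER libraries (edgeR adjusted p 0.00886). Of 6 tested genes of tryptophan supply and use, 3 rose, 1 fell and 2 stayed short of the threshold, among them Slc16a10 at 15.1 against 15.8 CPM (edgeR adjusted p 0.886).

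Serotonin receptors had few or no counts, apart from Htr4. Of 14 listed, 8 were in the table and 1 was tested; Htr2c, Htr3b, Htr5b, Htr6 and Htr7 had 0 counts in every library. Htr4, a receptor that raises cyclic AMP, was 6.03, 8.03 and 4.55 CPM in Hopx-CreER libraries and 13.2, 14.1 and 10.9 CPM in Lgr5-CreER libraries. On the log2 scale it fell by 1.03, with an SE of 0.28 (edgeR adjusted p 0.0424), and the call ended in 6 of 15 alternatives, among them each fit without 1 Lgr5-CreER library (edgeR adjusted p 0.0884 to 0.153). Htr1d, named after its values were seen, had 3, 17 and 22 counts in Hopx-CreER libraries 1, 2 and 3 and 3, 0 and 4 in Lgr5-CreER libraries 1, 2 and 3.

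Genes of enterochromaffin sensing and excitability split. Ffar2, a receptor for short-chain fatty acids, stood at 21.5 ± 7.33 CPM in Hopx-CreER and 4.77 ± 2.96 CPM in Lgr5-CreER cells (SD, n = 3), and rose by 2.18 ± 0.50 (SE) on the log2 scale (edgeR adjusted p 0.0219). Cacna1h, a T-type calcium channel, rose by 2.66 ± 0.64 (edgeR adjusted p 0.0265), or 3.51 without Lgr5-CreER library 2, and Cacna1a, a P/Q-type channel, by 1.06 ± 0.29 (edgeR adjusted p 0.0439). Of 15 alternatives, 9 ended the call of Cacna1a (adjusted p up to 0.161), 4 that of Cacna1h and 3 that of Ffar2. Over the 3 libraries of a group, the sodium channel gene Scn3a had 49 counts in Hopx-CreER and 2 in Lgr5-CreER cells, which is a ratio of 28 (exact 95% interval 7.36 to 238). Adra2a, an alpha-2 adrenergic receptor, went the other way and fell by 0.97 ± 0.14 (SE) on the log2 scale. It was 69.7, 69.5 and 57.9 CPM in Hopx-CreER and 148, 127 and 111 CPM in Lgr5-CreER libraries (edgeR adjusted p 0.00311). Piezo1, a mechanosensitive channel, did not pass (log2 fold change -0.67, 95% interval -1.50 to 0.16, and -0.079 without Lgr5-CreER library 1). The olfactory receptor genes Olfr558 and Olfr78, named after their values were seen, had 13 and 25 counts in Hopx-CreER and 0 in Lgr5-CreER libraries. Against a floor of 3 counts over the Lgr5-CreER group, that is 4.96-fold and 9.53-fold. These folds leave out the counting error in the Hopx-CreER counts. Of the 7 tested, 4 rose, 1 fell and 2 did not pass. The number that rose was 1 when Hopx-CreER library 2 was left out, 2 and 1 when Lgr5-CreER libraries 1 and 3 were, and 1 after summing the columns whose names share a number.

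All 6 tested products that enterochromaffin cells secrete were higher, as were 9.45% of all tested genes. They were called in all 15 alternatives, but the list was chosen with results of these data known, so this is no sign of stability. Nor was it particular to this list: all 12 pan-enteroendocrine markers, Chga and Chgb among them, and 4 of 5 tested other gut hormones were called higher. So were all 6 Paneth, all 6 goblet, 10 of 12 enterocyte and 6 of 9 tested tuft markers. All 8 Lgr5 stem cell markers were called lower, and no tested mast cell, enteric neuron or immune marker was called. Tac1, which encodes substance P, was 110, 266 and 158 CPM in Hopx-CreER libraries and 11.2, 15.5 and 13 CPM in Lgr5-CreER libraries, a log2 fold change of 3.75 ± 0.32 (SE; edgeR adjusted p 0.000424). Chgb, a granin, rose by 3.57 ± 0.46 (edgeR adjusted p 0.00164), but was lowest in Hopx-CreER library 3, at 342 CPM against 696 and 1315 CPM in libraries 1 and 2, whereas Tph1 was highest in library 3. Without Hopx-CreER library 2 the rise in Chgb was 2.98. Sct, the hormone secretin, rose by 2.88 ± 0.47 (edgeR adjusted p 0.00477). The peptide hormone gene Ucn3 had 591 counts in Hopx-CreER and 2 in Lgr5-CreER cells, which is a ratio of 338 (exact 95% interval 93.2 to 2798). Chga and Reg4, a secreted lectin, rose by 4.82 ± 0.30 (edgeR adjusted p 0.000212) and 5.21 ± 0.34 (edgeR adjusted p 0.00024).

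**Figure D4:**
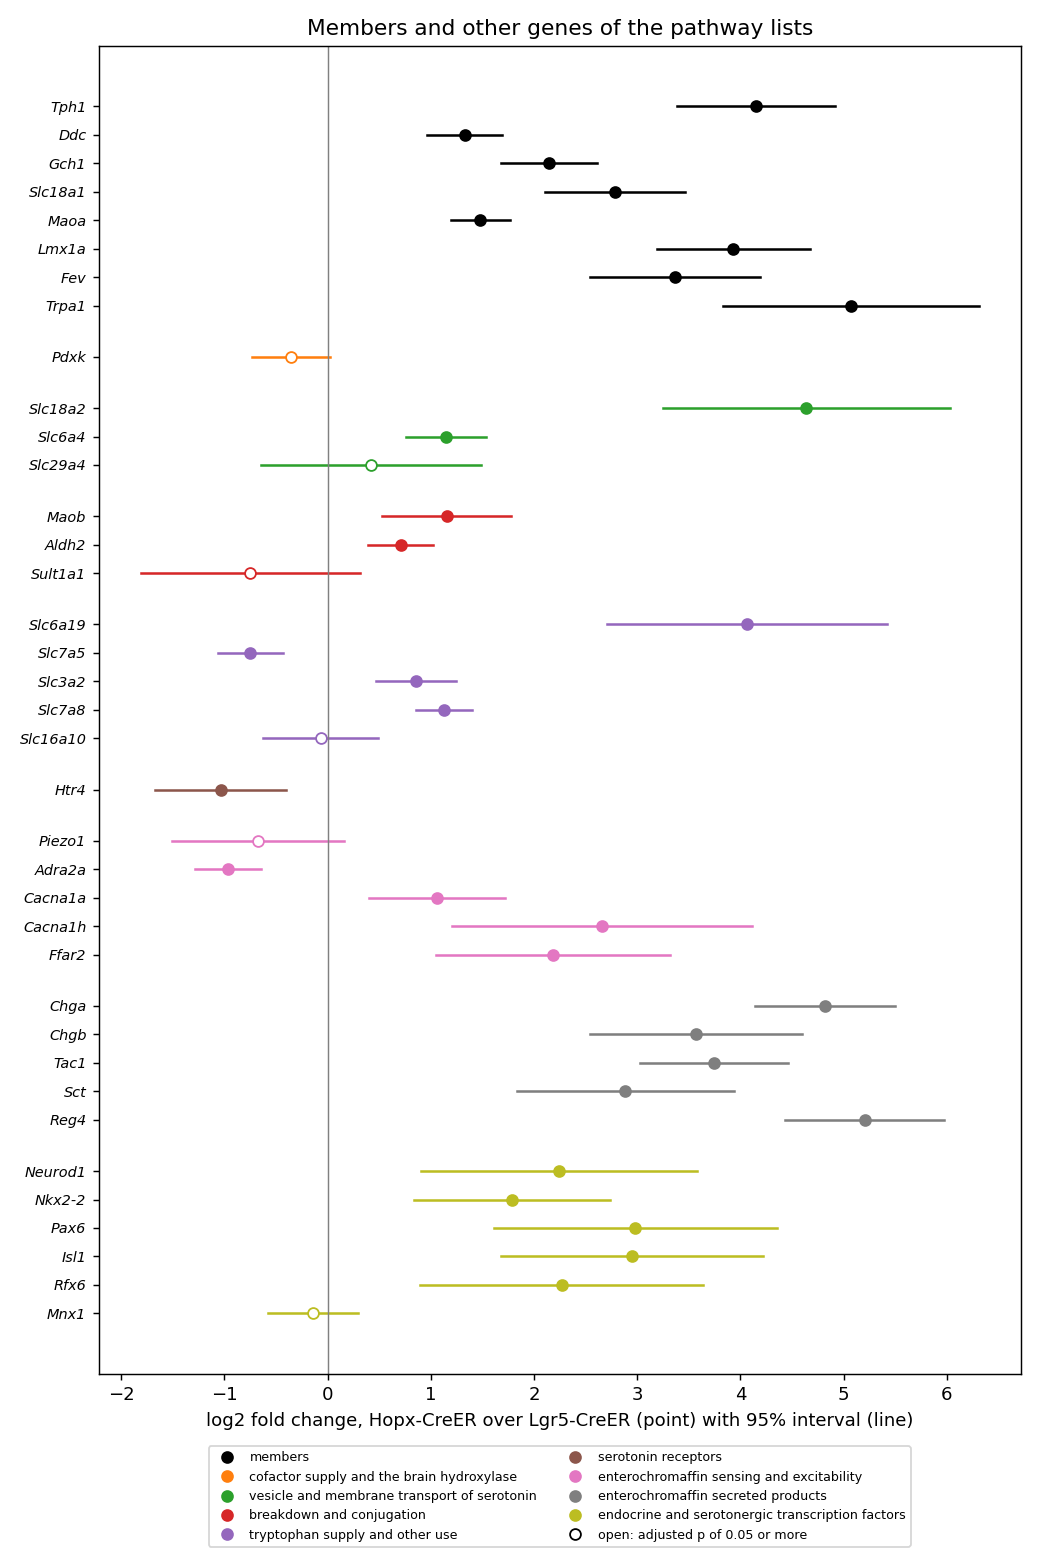
Log2 ratio of Hopx-CreER to Lgr5-CreER (points), with its 95% interval (lines), for the 8 genes in black and for named genes of each list in colour; open points had an adjusted p of 0.05 or more, and Ucn3 and Scn3a, with 2 counts in Lgr5-CreER libraries, are left out. Adra2a, Htr4 and Slc7a5 are the filled points left of 0, and Ddc, at 1.33, and Maoa, at 1.48, lie left of the other 6 black points.

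Among endocrine transcription factors, Neurog3, which commits crypt cells to the endocrine lineage and is named after its values were seen, overlapped between the groups and did not pass the test. It was 14.1, 18.3 and 20.4 CPM in Hopx-CreER and 11.4, 20.2 and 17.1 CPM in Lgr5-CreER libraries, a log2 fold change of 0.12 with a 95% interval of -0.48 to 0.71 (edgeR adjusted p 0.805). The ratio of Fev to Neurog3 in CPM was 0.797 to 1.46 in Hopx-CreER and 0.0855 to 0.152 in Lgr5-CreER libraries, and that of Lmx1a to Neurog3 was 1.54 to 2.14 and 0.0843 to 0.193. Mnx1, a homeodomain factor, was 21.5 ± 3.15 against 23.7 ± 2.74 CPM (SD, n = 3), and did not pass (95% interval of the log2 fold change -0.57 to 0.30). Of the factors that passed, Pax6 rose by 2.98 ± 0.61 (SE, log2; edgeR adjusted p 0.0132), Isl1 by 2.95 ± 0.56 (edgeR adjusted p 0.0096) and Nkx2-2, needed in mouse for enterochromaffin cells, by 1.79 ± 0.42 (edgeR adjusted p 0.0243). Neurod1 and Rfx6 rose by 2.24 ± 0.59 and 2.27 ± 0.61, with an edgeR adjusted p of 0.0377 and 0.0394. Pax6, Isl1 and Neurod1 passed the filter on low counts only with their Hopx-CreER counts, so their adjusted p is not read as evidence. Insm1 and Pax4, endocrine factors named after their values were seen, did not pass, with log2 fold changes of 1.23 and 1.13 (edgeR adjusted p 0.0577 and 0.147).

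Of the 11 tested factors, 6 were higher, 0 lower and 5 did not pass. The 6 include Pax6, Isl1 and Neurod1, which passed the filter on low counts only with their Hopx-CreER counts. At an unadjusted p under 0.05 8 were higher and 0 lower, by DESeq2 7 and 0, and by limma-voom 4 and 0. The number that rose was 2 when Hopx-CreER library 2 was left out, 1, 1 and 2 when Lgr5-CreER libraries 1, 2 and 3 were, 2 after summing the columns whose names share a number, and 3 with library totals alone as scaling. Of 15 alternatives, 8 ended the call of Rfx6, 6 that of Neurod1, 5 that of Nkx2-2 and 2 that of Pax6. Isl1 passed in all 15; without Hopx-CreER library 2 its rise was 2.20, that of Pax6 2.38, of Neurod1 1.52 and of Rfx6 1.58, and without Lgr5-CreER library 3 that of Pax6 was 3.705. Within the Hopx-CreER group Pax6, Isl1 and Rfx6 were lowest in library 3, and Nkx2-2, Neurod1, Lmx1a and Fev in library 1. Lmx1b, Gata2 and Gata3, which act with Fev in serotonergic neurons of the brain, did not reach the filter on low counts. Lmx1b had 10 counts in Hopx-CreER and 5 in Lgr5-CreER libraries, Gata2 had 8 counts, all in Hopx-CreER library 3, and Gata3 had 0.

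**Figure D5:**
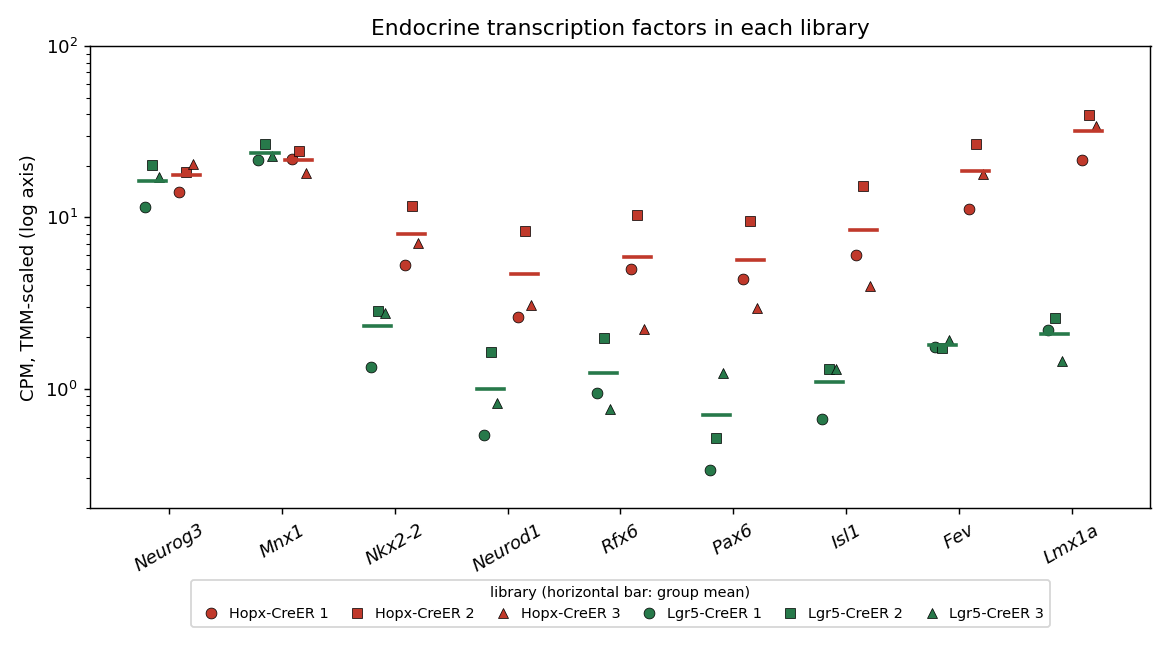
TMM-scaled CPM on a log axis for endocrine transcription factors in each library (points, with a horizontal bar at the group mean), Hopx-CreER in red and Lgr5-CreER in green. Neurog3 and Mnx1 overlap between groups, while Fev and Lmx1a stand at 11.2 to 39.3 CPM in Hopx-CreER and at 1.45 to 2.59 CPM in Lgr5-CreER libraries.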

How the data were processed

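RNA was measured in 6 libraries of sorted mouse crypt cells, amplified by SMART-Seq and tagmented with Nextera XT, per the labels. The authors deposited 1 table of raw counts per versioned mouse Ensembl gene, as whole numbers with no normalization. Kallisto, edgeR and the build GRCh38 are named in the submitters' processing notes with no role; GRCh38 names a human assembly, whereas the identifiers are those of mouse. The use of strand in counting is not stated there. Symbols, GRCm38 positions and exon lengths came from GENCODE M21, which matched 23479 of 23565 identifiers. Columns state the gate, not a replicate number, and all 6 were used.

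CPM were scaled by TMM factors. Groups were compared in edgeR 4.0.16 (R 4.3.3) by the quasi-likelihood F-test with filterByExpr and Benjamini-Hochberg adjustment over 12439 genes at 0.05, with 3402 genes at an unadjusted p under 0.05. The SE came from the F statistic. Alternatives were RLE factors, library totals alone, other filters, DESeq2 1.42.0, limma-voom (limma 3.58.1), GC offsets, leaving out each library, and summing the columns that share a number; this sum without Hopx-CreER library 3 was added after the data were seen. Members and lists were chosen with earlier results of these data known. Named are the members, each list's called genes and the most abundant gene of the rest, and the nearest genes in pattern (5 for Tph1, 2 for each other member); any other gene is marked where it is named, and 2 genes that this rule takes are not reported here. The test was first checked on simulated data. 10 listed genes are not analysed here.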

Additional observations from a re-analysis of the deposited data

How the results depend on the processing

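The 8 members were chosen by this contrast in these libraries, so that all 8 were called in all 15 alternatives is no sign of stability. The log2 fold change of Maoa moved beyond the spread between libraries with GC offsets (1.77). Fits without 1 library gave 723 to 1868 calls over all genes (1586 with all libraries), of which 606 to 1275 were higher (1176) and 117 to 593 lower (410), and 14 to 24 pathway genes higher (23) and 2 to 3 lower (3). Summing the columns that share a number gave 790 calls, 659 higher and 131 lower, and 14 pathway genes higher. Lower calls numbered 729 with library totals alone (938 higher), 701 with GC offsets (1175 higher) and 670 by DESeq2 (1413 higher), so the share of higher calls was 56.3%, 62.6% and 67.8%, against 74.1%. With library totals alone the median of all tested genes moved to -0.147, from -0.033. The causes were not tested; fits with fewer libraries also have fewer degrees of freedom. Of the 26 called pathway genes, 16 to 26 kept their call over the alternatives. In Lgr5-CreER libraries Trpa1 and Slc18a2 rest on 22 and 14 counts, which limits their folds. No paired analysis was possible because the columns carry no replicate numbers.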
